A study of Homo sapiens with 24 samples.

Results

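Chromatin accessibility after 1 h of fulvestrant was compared with that after 1 h of tamoxifen in T47D, an established line of human luminal breast cancer cells with estrogen receptor. The members were the 4 fulvestrant and the 4 tamoxifen libraries among the 24 of the series, taken by their titles, and all 156745 of 189403 peaks that passed a filter on low counts. The assay was ATAC-seq, a transposase that cuts and tags open DNA, and the deposited table gives raw counts per peak on genome build hg38. Both drugs were given at 100 nM for 1 h after 1 day in complete medium, so dose, time and medium were matched. Raloxifene (100 nM) and vehicle (0.1% DMSO) libraries, 4 of each in the same medium and for the same time, are set beside them. Vehicle replicates 3 and 4 in this medium are DMSO by title but carry fulvestrant as treatment. Cells starved of hormone for 3 days and then given 1 nM estradiol or 0.1% DMSO for 1 h, 4 libraries each, served to mark estradiol-responsive peaks. Whether replicates came from separate cultures is not in the labels, and the p-values cover only the spread among these libraries, which may be technical. All libraries come from 1 cell line.

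Fulvestrant and tamoxifen both occupy the hormone pocket of the estrogen receptor, a transcription factor that opens enhancers and promoters of its target genes when estradiol binds it. Fulvestrant is a steroid built on the estradiol skeleton with a long side chain, and receptor bound to it is destabilised and degraded. Tamoxifen is a nonsteroidal triphenylethylene with a basic side chain, and receptor bound to it persists on DNA with altered cofactor contacts. In breast tissue both are known as antagonists of estradiol.

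The receptor binds the letters GGTCA and their reverse complement TGACC separated by 3 bases. Promoter windows from RefSeq (GRCh38.p14; 250 bases before to 50 after a gene's start) were searched on both strands where at least 100 bases of the window lay in a peak. The full element was in 0.0570% of all 35116 windows, in 0.0250% of the 15990 windows in tested peaks, and in 1 of the 27 windows in estradiol-raised peaks. GGTCA or TGACC alone was in 37.4%, 34.3% and 23 of 27 of these. The forkhead letters TGTTTAC were in 3.42%, 2.83% and 3 of 27, and the AP-1 letters TGANTCA in 7.71%, 5.24% and 3 of 27. These shares count matches anywhere in the window, including bases that lie outside the peak. Some of the 27 windows share a peak and overlap in sequence, such as those of MICOS10, MICOS10-NBL1 and MICOS10-DT, so they are not independent. To show the letters beside drug values, 4 windows in estradiol-raised peaks are given. They were picked after their values were seen. LINC02130 has the single window of the 27 with the full element. LOC107986054 has the widest drug difference among those here, LOC105371934 lies in the RARA peak, and the peak of LOC100126584 lay on the opposite side. In starved cells the estradiol log2 fold changes of these peaks were 1.13, 3.07, 1.28 and 0.88, in this order. Capitals mark GGTCA or TGACC, each sequence is written 5′ to 3′ on the gene's own strand, and only the stretch inside the peak is given.
LINC02130 promoter window: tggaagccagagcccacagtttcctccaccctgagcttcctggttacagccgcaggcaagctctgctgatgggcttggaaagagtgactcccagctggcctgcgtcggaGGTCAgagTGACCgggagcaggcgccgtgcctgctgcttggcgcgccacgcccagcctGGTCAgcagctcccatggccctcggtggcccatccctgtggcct
LOC107986054 promoter window: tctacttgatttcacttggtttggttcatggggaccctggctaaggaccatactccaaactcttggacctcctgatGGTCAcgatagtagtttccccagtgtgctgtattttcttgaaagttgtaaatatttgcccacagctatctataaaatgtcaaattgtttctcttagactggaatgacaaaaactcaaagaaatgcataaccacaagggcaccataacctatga
LOC105371934 promoter window: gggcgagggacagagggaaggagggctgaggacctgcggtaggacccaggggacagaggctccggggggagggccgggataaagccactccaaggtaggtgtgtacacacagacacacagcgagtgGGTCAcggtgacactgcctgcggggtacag
LOC100126584 promoter window: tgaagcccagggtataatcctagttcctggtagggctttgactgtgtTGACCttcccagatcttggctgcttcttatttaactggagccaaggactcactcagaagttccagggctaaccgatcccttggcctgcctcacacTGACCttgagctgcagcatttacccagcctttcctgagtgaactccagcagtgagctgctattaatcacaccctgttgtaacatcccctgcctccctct

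The LINC02130 window (chr16:14370306-14370516, minus strand) belongs to a long noncoding RNA 65.3 kb from the coding gene PARN and holds the full element. Its peak had 28.2, 28.7, 22.3 and 7.85 CPM (counts scaled to library size) in the fulvestrant libraries 1 to 4, against 37.1, 38.1, 32.1 and 31.6 CPM in the tamoxifen libraries 1 to 4. All fulvestrant libraries lay below all tamoxifen libraries. The log2 fold change of fulvestrant over tamoxifen was -0.40 (95% interval -0.64 to -0.15), and its p of 0.00198 became 0.934 after Benjamini-Hochberg adjustment over all tested peaks in edgeR. Without fulvestrant replicate 4 it was -0.36.

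The LOC107986054 window (chr3:182699939-182700167, minus strand) lies in a peak 93.5 kb from ATP11B, a phospholipid flippase gene. The peak had 12.4, 9.62, 4.95 and 4.71 CPM with fulvestrant, against 21.4, 21.3, 9.96 and 8.52 CPM with tamoxifen. Replicates 1 and 2 exceeded replicates 3 and 4 with either drug, so the groups overlapped although fulvestrant lay lower within each such pair. Its log2 fold change stood at -0.63 (95% interval -1.21 to -0.05, adjusted p = 0.934 in edgeR). Within replicates 1 and 2 alone it was -0.92 and was called (adjusted p = 0.0328 in edgeR).

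The RARA window (LOC105371934, chr17:40322475-40322630, minus strand) and the TPD52L1 window (LOC100126584, chr6:125197827-125198067, minus strand) lie in peaks inside those genes. The RARA peak, in the gene of a retinoic acid receptor, had 85.2, 82.8, 66.3 and 31.4 CPM with fulvestrant, against 89.0, 96.4, 75 and 86.4 CPM with tamoxifen. The TPD52L1 peak had 8.59, 11.2, 6.78 and 6.28 CPM with fulvestrant, against 9.41, 6.46, 7.78 and 5.11 CPM with tamoxifen. Both peaks overlapped between the drugs, at log2 fold changes of -0.18 (95% interval -0.38 to 0.03) and 0.33 (95% interval -0.07 to 0.74). Without fulvestrant replicate 4 they were -0.13 and 0.35.

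Depth limits what follows. The 3 deeper fulvestrant libraries held 5448411 to 11262408 counts and the tamoxifen libraries 6725045 to 9871575, but fulvestrant replicate 4 held 434598, the lowest of the series. It had no count in 36.1% of peaks, a scaling factor of 1.56, and 36.3% of its counts in the 10% of peaks with most counts. The other fulvestrant libraries had 46.8% to 50.1% there, and the tamoxifen libraries 48.8% to 50.6%. Its CPM were therefore low at strong peaks whatever their nature, and values without it are given beside many of the results. The line's identity was checked at gene starts: 10 of 18 luminal markers had a tested peak in the promoter window (median 27.6 CPM over the 8 libraries; ESR1 19.1, GATA3 38.4). Of the basal and mesenchymal markers 3 of 11 had one (median 5.58 CPM), and of the blood cell markers 2 of 9 (8.42 CPM). Markers with no such peak were found in every list, among them CDH1, EPCAM, KRT18 and KRT19 of the luminal list, KRT5 and TP63 of the basal list and PTPRC of the blood cell list.

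The first question was whether 1 h of a degrader and 1 h of a modulator leave different accessibility anywhere. No peak passed the test: 0 of 156745 peaks (0.0%) were called at an adjusted p under 0.05 in edgeR, and the smallest adjusted p was 0.473. DESeq2 also called 0 peaks. With a term for the replicate set (1 and 2 against 3 and 4) edgeR called 0 peaks higher and 3 lower, with a smallest adjusted p of 0.00315. At an unadjusted p under 0.05, edgeR gave 4051 peaks higher (2.58%) and 4216 lower (2.69%) with fulvestrant, 5.27% in all, and DESeq2 gave 4412 higher and 2769 lower. The same fit in starved cells called 1274 peaks higher (0.813%) and 35 lower (0.0223%) after 1 h of estradiol, 0.835% in all.

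The 95% intervals, taken peak by peak, show how large a difference the values of each peak allow. They do not show which differences the adjusted test could have missed. The log2 fold changes of all peaks had a median of -0.01 and an SD of 0.40, with a median SE of 0.33. The 95% interval lay within 2-fold in either direction at 58.4% of peaks and within 1.5-fold at 24.2%. This depended on abundance. Of the 39186 most abundant peaks (median 13.2 CPM), 99.1% had an interval within 2-fold and 80.9% within 1.5-fold, while of the 39187 least abundant (median 1.07 CPM) 6.83% had one within 2-fold. For most weak peaks a 2-fold difference was therefore not excluded.

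The small shifts also ran with abundance. The median log2 fold change was 0.10 in the least abundant class and -0.07 in the most abundant. Within replicates 3 and 4 these medians were 0.42 and -0.25, within replicates 1 and 2 they were 0.00 and -0.02, and without fulvestrant replicate 4 they were 0.07 and -0.04.

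**Figure D1:**
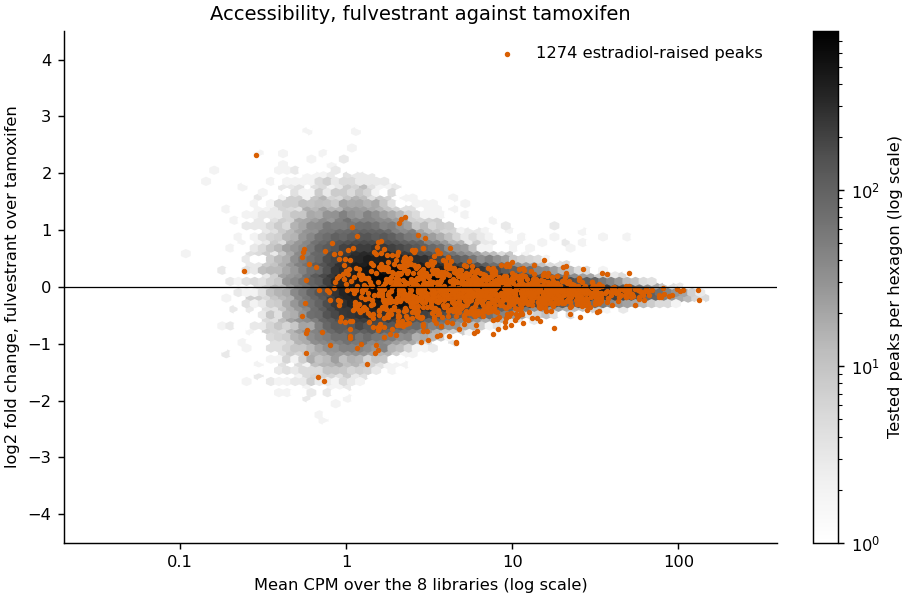
Each hexagon counts tested peaks by mean CPM over the 8 libraries (x, log scale) and by log2 fold change of fulvestrant over tamoxifen (y), and orange points are the 1274 estradiol-raised peaks. The cloud narrows as CPM grows and stays centred near 0, and no peak was called.

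The drugs make 3 pairs. Fulvestrant against raloxifene called 0 peaks higher and 1 lower (0.000638%), in ZMIZ1. Raloxifene against tamoxifen called 0 peaks in edgeR, with 2902 higher and 3245 lower at an unadjusted p under 0.05. The ZMIZ1 peak (chr10:79128630-79128949), in a gene for a transcriptional coregulator, had 41.8, 42.8, 29.9 and 14.1 CPM with fulvestrant, against 52.0, 45.5, 46.9 and 44.5 CPM with tamoxifen. It did not overlap between these drugs either, at a log2 fold change of -0.31 (95% interval -0.54 to -0.09, adjusted p = 0.934 in edgeR), compared with -0.61 against raloxifene (adjusted p = 0.0411 in edgeR). These pairs share libraries and are not independent of each other.

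The 5 abundant peaks with the smallest p on the lower side were examined next, as a description. They lay near CYP2A7, in NYAP2, in CADM1, in PHACTR1 and near MAT2B. In CPM, all 4 fulvestrant libraries were below all 4 tamoxifen libraries at each. Over all tested peaks, 3325 (2.12%) separated this way and 1728 (1.10%) separated with fulvestrant above. With fulvestrant replicates 1 to 3 only, these were 4495 (2.87%) and 4287 (2.74%).

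The peak near CYP2A7, a cytochrome P450 gene 39.1 kb away (chr19:40921133-40921531), had the smallest p of all. It had 53.1, 50.2, 45.8 and 15.7 CPM with fulvestrant, against 73.1, 87.1, 65.3 and 72.5 CPM with tamoxifen. Raloxifene libraries lay at 61.0 to 67.5 CPM and vehicle libraries at 57.3 to 71.5 CPM, between the groups or within the tamoxifen range. The mean was 41.2 ± 17.3 CPM with fulvestrant and 74.5 ± 9.12 CPM with tamoxifen (SD, n = 4 each). The log2 fold change was -0.61 (SE 0.12, 95% interval -0.84 to -0.37, adjusted p = 0.473 in edgeR), and -0.57 without fulvestrant replicate 4. Within replicates 1 and 2 alone it was -0.62 and was called (adjusted p = 0.000482 in edgeR). In starved cells its log2 fold change with estradiol was -0.10 (adjusted p = 1.0 in edgeR).

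NYAP2 encodes an adaptor of phosphoinositide 3-kinase signalling in neurons. Its peak (chr2:225615535-225615853) had 15.6, 16.9, 10.3 and 4.71 CPM with fulvestrant, against 27.5, 26.5, 19.9 and 22.1 CPM with tamoxifen. In the fit this gave a log2 fold change of -0.72 (95% interval -1.04 to -0.41, adjusted p = 0.650 in edgeR). With the term for the replicate set the NYAP2 and CYP2A7 peaks were called, at -0.80 and -0.62 (adjusted p = 0.00682 and 0.00315 in edgeR).

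CADM1 encodes a cell adhesion molecule of the immunoglobulin family. Its peak (chr11:115471477-115471709) had 22.2, 24.9, 18.7 and 14.1 CPM with fulvestrant, against 30.1, 33.4, 31.0 and 31.7 CPM with tamoxifen, a log2 fold change of -0.52 (95% interval -0.77 to -0.27). PHACTR1, a regulator of actin and of protein phosphatase, had a peak (chr6:12719114-12719371) at 6.31, 6.78, 5.31 and 0 CPM with fulvestrant, against 11.5, 9.14, 10.6 and 11.4 CPM with tamoxifen (-0.83, 95% interval -1.23 to -0.43). Without fulvestrant replicate 4 the values were -0.69 at NYAP2, -0.50 at CADM1 and -0.79 at PHACTR1. In starved cells estradiol raised these 3 peaks, at log2 fold changes of 1.48, 1.61 and 1.50 (adjusted p = 1.32e-07, 1.48e-14 and 2.68e-06 in edgeR). The peak 494 kb from MAT2B (chr5:164013196-164013403) was weak, at 1.19, 2.10, 2.75 and 0 CPM with fulvestrant, against 4.97, 3.31, 3.27 and 5.54 CPM with tamoxifen. Its estradiol log2 fold change was 0.18 (adjusted p = 1.0 in edgeR).

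On the higher side the 5 peaks lay inside PLEC, PTPN14, FNDC3B, GADD45GIP1 and GINS2. PTPN14, a tyrosine phosphatase gene, had a peak (chr1:214377149-214377406) at 7.5, 7.4, 5.86 and 7.85 CPM with fulvestrant, against 4.71, 3.62, 3.68 and 2.66 CPM with tamoxifen. FNDC3B had a peak (chr3:172153333-172153597) at 9.78, 8.88, 9.16 and 9.42 CPM with fulvestrant, against 5.49, 6.62, 5.18 and 4.68 CPM with tamoxifen. At both, all fulvestrant libraries lay above all tamoxifen libraries. The shallow fulvestrant replicate 4 held only 5 counts at PTPN14 and 6 at FNDC3B, so its CPM there are coarse. The log2 fold changes were 0.97 (95% interval 0.49 to 1.45) for PTPN14 and 0.78 (95% interval 0.39 to 1.18) for FNDC3B, with adjusted p = 0.934 for each in edgeR. Estradiol gave no call at any of the 5 peaks on the higher side, with log2 fold changes of -0.61 at PTPN14 to 0.51 at GINS2.

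Neither the PTPN14 nor the FNDC3B peak was called between raloxifene and tamoxifen. The log2 fold change of raloxifene over tamoxifen was 1.02 at PTPN14 and 0.23 at FNDC3B, and that of fulvestrant over raloxifene was -0.05 at PTPN14 and 0.55 at FNDC3B. These share libraries with the comparison above. The peak in GADD45GIP1 (chr19:12955985-12956233), which encodes a mitochondrial ribosome protein, had 4.02, 5.67, 3.66 and 6.28 CPM with fulvestrant, against 2.22, 2.21, 2.05 and 1.81 CPM with tamoxifen. The peak in GINS2 (chr16:85679849-85680168), a subunit of the replicative helicase, had 7.31, 9.0, 12.1 and 7.85 CPM with fulvestrant, against 5.36, 5.36, 3.68 and 4.05 CPM with tamoxifen. The peak in PLEC (chr8:143966576-143966977), the cytoskeletal linker plectin, had 9.69, 10.8, 8.06 and 1.57 CPM with fulvestrant, against 5.23, 5.20, 3.55 and 3.41 CPM with tamoxifen. It overlapped through fulvestrant replicate 4 only, at a log2 fold change of 1.14 (95% interval 0.65 to 1.64, adjusted p = 0.650 in edgeR). Fulvestrant replicate 4 held 1 count at PLEC, 4 at GADD45GIP1 and 5 at GINS2.

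**Figure D2:**
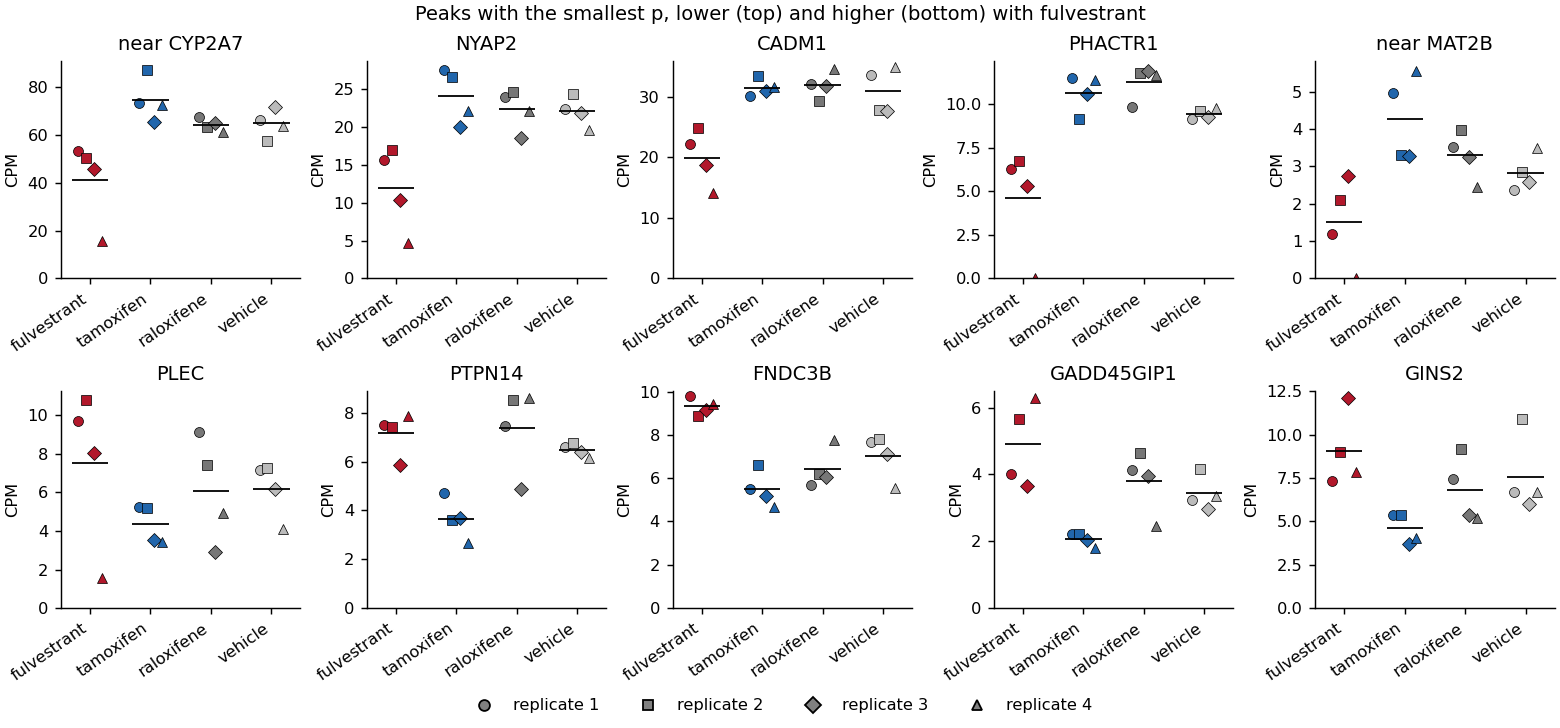
CPM in each library (points, marker shape by replicate; line, group mean) at the 5 lower and 5 higher abundant peaks with the smallest p, for fulvestrant, tamoxifen, raloxifene and vehicle in complete medium. Fulvestrant lies below tamoxifen in every panel of the upper row and above it in the lower row except for replicate 4 at PLEC, and fulvestrant replicate 4 is the lowest point in the upper row.

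The estradiol-raised peaks were compared as a group, since they were chosen in starved libraries that neither drug used. They were slightly lower with fulvestrant than with tamoxifen. Of the 1274 peaks, 0 were called, 20 were higher and 102 lower at an unadjusted p under 0.05, and 825 (64.8%) had a log2 fold change below 0, compared with 51.3% of all tested peaks. Their median was -0.09, against -0.01 for all peaks, and -0.06 without fulvestrant replicate 4. In CPM, 58 of them (4.55%) had all fulvestrant libraries below all tamoxifen libraries, against 2.12% of all peaks, and 6 (0.471%) had the reverse, against 1.10%. With fulvestrant replicates 1 to 3 only, these were 71 (5.57%, against 2.87% of all peaks) and 15 (1.18%, against 2.74%). The shift was not particular to estradiol-raised peaks. Of the 12478 promoter-window peaks, 73.8% had a log2 fold change below 0. With fulvestrant replicates 1 to 3 only, 740 of these (5.93%) lay below all tamoxifen libraries and 129 (1.03%) above.

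The size of the estradiol-raised median depended on single libraries. It was -0.01 without fulvestrant replicate 3, against -0.02 for all peaks in that fit, and -0.17 or -0.16 without fulvestrant replicate 1 or 2. It was -0.04 or -0.03 without tamoxifen replicate 1 or 2. Within replicates 1 and 2 it was -0.09, and within replicates 3 and 4 it was -0.37.

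Other classes chosen by their response to estradiol or medium did not share the median, but promoter-window peaks, chosen by position, did (-0.09). These class medians were not matched for abundance. The median was -0.07 in the most abundant class of all tested peaks and 0.10 in the least abundant. The 35 peaks lowered by estradiol had a median of 0.07, the 15537 peaks called lower in complete than in starved medium (9.91%) 0.07. Of the 12423 peaks called higher in complete medium (7.93%), the 11415 not raised by estradiol had a median of -0.01. Set against vehicle, the estradiol-raised peaks had medians of -0.16 with fulvestrant, -0.07 with tamoxifen and 0.01 with raloxifene, 3 values that share the vehicle libraries. These include the vehicle libraries with conflicting labels, and no median without them is given.

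A ratio per library makes this comparison without the fit. On the log2 scale, the mean count per estradiol-raised peak was divided by that of 6370 abundance-matched peaks that neither estradiol nor the medium changed in the fit. It was 0.14, 0.13, -0.16 and -0.22 in the fulvestrant libraries, against 0.18, 0.22, 0.01 and -0.01 in the tamoxifen libraries. The raloxifene libraries lay between 0.10 and 0.23, and the vehicle libraries between 0.15 and 0.23. In starved cells it was 0.01 to 0.17 with estradiol and -0.98 to -0.93 with vehicle. The peaks were chosen by comparing these same starved libraries, so that gap was fixed by the choice.

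The mean ratio was -0.03 ± 0.19 with fulvestrant and 0.10 ± 0.12 with tamoxifen (SD, n = 4 each), a difference of -0.13, or 0.915-fold. Pairs of 1 fulvestrant and 1 tamoxifen library differed by -0.44 to 0.15, and 12 of 16 pairs were below 0. The difference was smaller than the SD within the fulvestrant group. It was -0.06 without fulvestrant replicate 4 and -0.08 without fulvestrant replicate 3. Within replicates 1 and 2 it was -0.06, within replicates 3 and 4 it was -0.19, and all 4 of 4 pairs were below 0 in each. The labels name no batch for these numbers, and what separates replicates 1 and 2 from 3 and 4 was not tested.

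**Figure D3:**
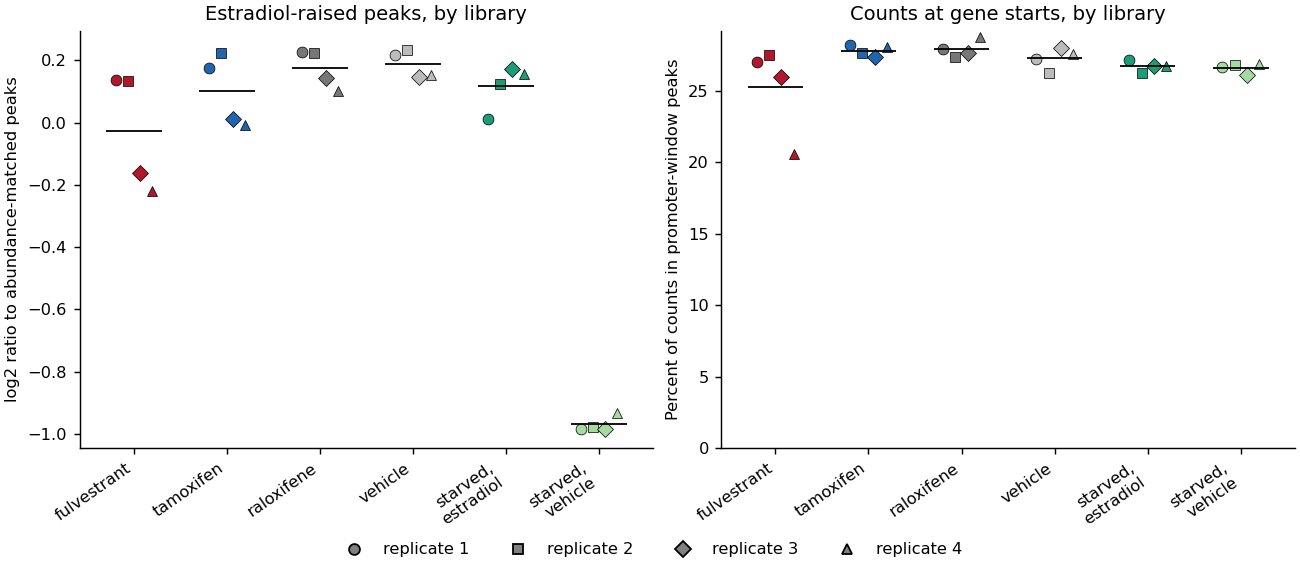
Left, the log2 ratio of estradiol-raised to abundance-matched peaks in each library; right, the percent of each library's counts in promoter-window peaks (points, marker shape by replicate; lines, group means; 4 libraries per group). Replicates 3 and 4 lie below 1 and 2 with both drugs on the left, and fulvestrant replicate 4 stands alone at 20.6% on the right.

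Single peaks near classical estrogen-induced genes were then read. Within 50 kb of 35 such genes lay 841 tested peaks, of which 0 were called, 26 were higher and 23 lower at an unadjusted p under 0.05 (2.58% and 2.69% of all tested peaks were), and the median was -0.01 (0.00 without fulvestrant replicate 4). Of these genes 24 had an estradiol-raised peak, 1 peak being shared by RARA and CDC6, which gave 23 peaks. Of these 15 were below 0 and 8 above, with a median of -0.06, and -0.02 without fulvestrant replicate 4. Fulvestrant replicate 4 was the lowest of the 8 libraries at 19 of the 23. The 95% interval lay within 2-fold at 22 of them.

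GREB1, an early estrogen-induced gene and receptor cofactor, had 33.9, 36.0, 18.5 and 14.1 CPM at its peak (chr2:11531048-11531281) with fulvestrant, against 36.1, 34.3, 27.1 and 30.8 CPM with tamoxifen. Replicates 1 and 2 overlapped and replicates 3 and 4 were lower with fulvestrant. In the fit its value was -0.09 (95% interval -0.35 to 0.17), and -0.06 without fulvestrant replicate 4.

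PGR, the gene of the progesterone receptor, had 32.1, 31.6, 18.9 and 3.14 CPM (chr11:101034171-101034404) with fulvestrant, against 36.4, 35.1, 31.0 and 35.7 CPM with tamoxifen. The fulvestrant libraries 1 and 2 overlapped the lowest tamoxifen library, and replicates 3 and 4 lay further apart. PGR stood at a log2 fold change of -0.32 (95% interval -0.58 to -0.07), -0.28 without fulvestrant replicate 4, -0.16 within replicates 1 and 2 and -1.0 within replicates 3 and 4.

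CELSR2, which encodes an adhesion receptor of the cadherin family, had the widest difference of the 23. Its peak (chr1:109246306-109246605) had 3.66, 3.33, 2.75 and 1.57 CPM with fulvestrant, against 7.58, 5.20, 5.73 and 7.03 CPM with tamoxifen. The groups did not overlap. The log2 fold change was -0.97 (95% interval -1.49 to -0.45), and its p of 0.000368 became 0.934 after adjustment in edgeR. It was -0.95 without fulvestrant replicate 4, -0.88 within replicates 1 and 2 and -1.32 within replicates 3 and 4.

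SIAH2, a ubiquitin ligase gene, and ZMIZ1 were the other peaks of the 23 without overlap. SIAH2 had 16.3, 16.8, 11.0 and 3.14 CPM (chr3:150756496-150756701) with fulvestrant, against 18.3, 18.1, 17.1 and 19.4 CPM with tamoxifen. The peak taken for SERPINA1 (alpha-1 antitrypsin) was at -0.33, but lay 45.7 kb from that gene and nearer to SERPINA6. A peak in the SERPINA1 promoter window was at -0.0004 (95% interval -0.33 to 0.33). The SGK3 peak (a kinase related to AKT) was at -0.25. The SGK3 peak and the distant SERPINA1 peak were lower at an unadjusted p under 0.05 in edgeR, as were CELSR2, ZMIZ1, PGR and SIAH2. On the other side, the peak taken for KCNK5, a potassium channel gene, lay 37.5 kb from that gene and nearer to KCNK17. It was at 0.39 (95% interval 0.01 to 0.77). It had 11.8, 16, 7.14 and 1.57 CPM with fulvestrant, against 11.1, 10.4, 8.46 and 6.60 CPM with tamoxifen. Fulvestrant replicate 4 held 1 count there.

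Several of the best known targets had values close together. The peak taken for TFF1, a secreted trefoil factor (chr21:42376394-42376761), lay 10.0 kb from that gene and nearer to TMPRSS3. It had 8.32, 7.15, 5.68 and 6.28 CPM with fulvestrant, against 7.45, 7.41, 4.64 and 7.03 CPM with tamoxifen. The log2 fold change was 0.13 (95% interval -0.29 to 0.56). XBP1, a transcription factor of the unfolded protein response, was at -0.02 (95% interval -0.33 to 0.29). CTSD, the protease cathepsin D, was at -0.06 (-0.27 to 0.16), and FKBP4, a cochaperone of steroid receptors, at -0.01 (-0.32 to 0.30). The peaks taken for CTSD and FKBP4 lay 32.8 and 19.3 kb from those genes. IGFBP4, which binds insulin-like growth factors, lay further apart, at -0.26 (-0.58 to 0.06). Within replicates 1 and 2 it was -0.27, and within replicates 3 and 4 it was -0.60. Each 95% interval given for these 5 peaks spans 0 and leaves out 2-fold.

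**Figure D4:**
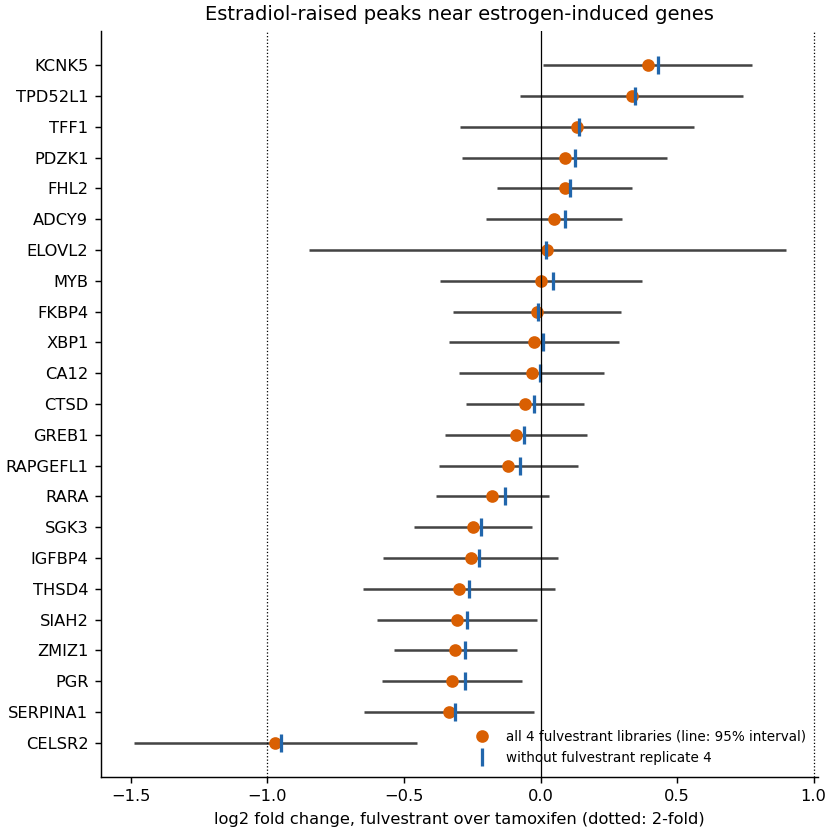
Log2 fold change of fulvestrant over tamoxifen (x) for the 23 estradiol-raised peaks near estrogen-induced genes (y, labelled by gene; the RARA peak is also that of CDC6). Circles are the fit with all libraries, lines its 95% intervals, blue ticks the value without fulvestrant replicate 4 and dotted lines 2-fold; only CELSR2 has an interval that crosses 2-fold, and the values run from -0.97 to 0.39.

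The 5 abundant peaks that estradiol raised most steeply showed no common direction. Their log2 fold changes were -0.35 near KCNU1, 0.24 in MCF2L, 0.34 in ARHGEF26, 0.07 in PTGER3 and -0.37 in CD276, and every 95% interval spans 0. The MCF2L peak, in a gene for a guanine nucleotide exchange factor, had 4.84, 4.07, 2.75 and 3.14 CPM with fulvestrant, against 2.09, 3.47, 4.77 and 3.51 CPM with tamoxifen. The CD276 peak, in an immune checkpoint gene, had 5.48, 3.95, 2.38 and 3.14 CPM with fulvestrant, against 6.93, 7.41, 2.59 and 5.22 CPM with tamoxifen. Both overlapped.

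In the other 10 gene lists 0 peaks were called. Their counts at an unadjusted p under 0.05 stand against 2.58% higher and 2.69% lower over all tested peaks, and no list was tested. Near 10 estrogen-repressed genes, 4 of 221 peaks were higher and 3 lower at an unadjusted p under 0.05 (median 0.00). Near the receptor and its cofactors 5 of 348 were higher and 14 lower (median -0.04), and the 550 peaks around luminal identity genes gave 10 higher and 27 lower (median -0.08). The strongest SPDEF peak, near a luminal transcription factor, had 102, 106, 102 and 51.8 CPM with fulvestrant, against 118, 119, 113 and 117 CPM with tamoxifen (-0.22, 95% interval -0.40 to -0.05, and -0.18 without fulvestrant replicate 4). It did not overlap. Without that library the medians were 0.01, -0.04 and -0.07 in these 3 lists.

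Tamoxifen is also known to bind enzymes of late sterol synthesis. Near 19 sterol genes 5 of 225 peaks were higher and 9 lower (median -0.04). The strongest HMGCS1 peak, at a synthase of the mevalonate route, had 105, 108, 103 and 50.3 CPM with fulvestrant, against 109, 119, 104 and 114 CPM with tamoxifen. Near 7 aryl hydrocarbon receptor targets 2 of 106 peaks were higher and 4 lower (median 0.02). Immediate early genes had 4 of 283 higher and 6 lower (median -0.03), and heat shock and proteasome genes 2 of 266 higher and 8 lower (median -0.07). The strongest FOS and HSPA8 peaks lay at -0.09 (95% interval -0.28 to 0.10) and -0.15 (95% interval -0.33 to 0.02).

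Near housekeeping genes 4 of 191 peaks were higher and 10 lower (median -0.02), and the strongest YWHAZ peak, at a gene for a signalling adaptor, lay at -0.13 (95% interval -0.31 to 0.06). Near basal and mesenchymal genes 8 of 133 were higher and 4 lower (median 0.05), and near blood cell genes 1 of 106 was higher and 1 lower (median -0.07). The medians of the last 7 lists without fulvestrant replicate 4 ran from -0.08 to 0.04.

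Peaks were then grouped by position. The 12478 peaks in promoter windows had a median of -0.09, with 73.8% below 0, and 76 were higher and 736 lower at an unadjusted p under 0.05, against 2.58% and 2.69% of all tested peaks. None of the 12478 was called. In CPM, 699 of the 12478 had all fulvestrant libraries below all tamoxifen libraries, and 32 had the reverse. Over all tested peaks 2.12% and 1.10% did. These counts include fulvestrant replicate 4, whose CPM were low at strong peaks whatever their nature. With fulvestrant replicates 1 to 3 only, 5.93% of promoter-window peaks lay below and 1.03% above, against 2.87% and 2.74% of all tested peaks. Without fulvestrant replicate 4 the median was -0.07, within replicates 1 and 2 it was -0.04, and within replicates 3 and 4 it was -0.27. Peaks inside genes, within 50 kb of genes and over 50 kb from any protein-coding gene had medians of 0.00, 0.00 and 0.01. Promoter-window peaks held 27.0%, 27.5%, 26.0% and 20.6% of counts in the fulvestrant libraries, against 28.2%, 27.7%, 27.4% and 28.1% in the tamoxifen libraries. The part of this share in the shift at promoters was not tested. Medians by chromosome ran from -0.04 to 0.02 over 23 chromosomes.

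Whether a difference seen in some libraries returned in others was checked between replicates 1 and 2 and replicates 3 and 4, which share no library. Across 149394 peaks the log2 fold changes of the 2 sets had a Pearson r of -0.01 and a Spearman rho of 0.00 (peaks of 1 set share their libraries and depth). Of the 3653 peaks higher at an unadjusted p under 0.05 in replicates 1 and 2, 47.3% were above 0 in replicates 3 and 4, where 44.0% of all peaks were. Of the 3415 lower ones 59.1% were below 0. For the estradiol comparison r was 0.15 and 66.4% of such peaks kept their sign, and for complete against starved medium r was 0.60 and 88.8% did. For raloxifene against tamoxifen r was 0.03. In the most abundant class r for fulvestrant against tamoxifen was 0.04, also without fulvestrant replicate 4.

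**Figure D5:**
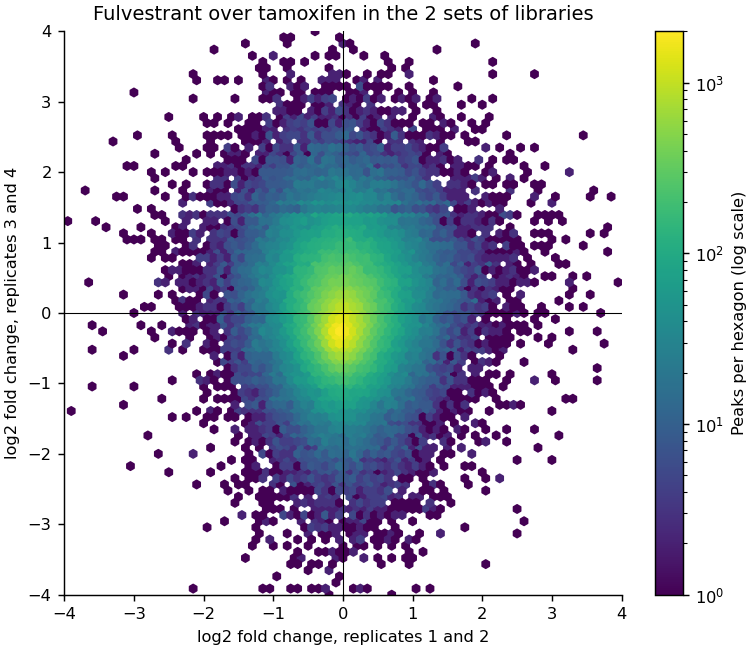
Log2 fold change of fulvestrant over tamoxifen in replicates 1 and 2 (x) and in replicates 3 and 4 (y), as counts of peaks per hexagon; 368 of 149394 peaks fall outside the axes. The cloud is taller than wide, has no slope (r = -0.01), and its densest point lies just below 0 on the y axis.

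Within replicates 3 and 4 alone, 281 of 160761 peaks (0.175%) were called, 268 higher and 13 lower with fulvestrant. Without fulvestrant replicate 4, 106 were called, of which 95 were among the 281. Of the 268, 194 had a value in replicates 1 and 2, where their median was -0.19 and 58 were above 0. All tested peaks had a median of 0.00 in replicates 1 and 2, with 49.5% below 0. The fit with all libraries tested 219 of the 268. Estradiol raised 2 of these in starved cells, where it raised 0.813% of all tested peaks. Of the 268, 87 (32.5%) lay over 50 kb from a protein-coding gene, against 21.6% of tested peaks. The mean CPM over those in the common set of tested peaks was 2.46, 1.45, 7.57 and 16 in the fulvestrant libraries, against 2.26, 2.39, 2.4 and 1.49 in the tamoxifen libraries. The choice of these peaks fixes that fulvestrant replicates 3 and 4 are high and tamoxifen replicates 3 and 4 low, and fulvestrant replicate 4 is the shallowest library.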

How the data were processed

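ATAC-seq libraries of T47D cells were compared by drug, grouped by their titles. The authors deposited raw counts per peak for 24 libraries over 1 common peak set (189403 peaks, 200 to 958 bp, median 226 bp) with no normalization. Per the submitters' processing notes, cutadapt 1.8.1, Bowtie2 2.4.4, SAMtools 1.9 and hg38 were used. The peak caller, counting tool, duplicate handling and any transposase shift were not given in the sources used here, and reads without molecular identifiers are not independent molecules. In complete medium, vehicle replicates 3 and 4 are DMSO by title but carry fulvestrant as treatment, so the fit was repeated without them.

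From these counts, 1 edgeR 4.0.16 fit (R 4.3.3) of all 24 libraries with 6 group means was made: filterByExpr (minimum count 10, minimum total 15), TMM scaling, glmQLFit with legacy=FALSE and robust=TRUE, a two-sided quasi-likelihood F-test and Benjamini-Hochberg adjustment over all 156745 tested peaks at 0.05. The SE is the size of the log2 fold change over the root of F, an approximation, and the 95% interval uses it. Fitted values weigh libraries by depth, so they can differ from ratios of mean CPM, which use TMM-scaled totals. DESeq2 1.42.0, RLE factors, total counts, other filters, other sample sets and leaving out each library were alternatives.

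Gene positions and promoter windows came from RefSeq (GRCh38.p14, 20052 protein-coding genes). A peak's distance runs from its middle to the edge of the gene's interval, with 0 inside it, and exons and introns were not told apart. Peak coordinates are as deposited. All 172 entries of the 11 gene lists (170 genes) matched, and a list's peaks lie within 50 kb of its genes. Peaks were named by rule: the 5 higher and 5 lower at or above the median abundance with the smallest p, the estradiol-raised peak of each estrogen-induced gene with the smallest estradiol p, the strongest peak of other list genes, and the 5 steepest estradiol-raised peaks. Any other is said to be picked later, and some results are not reported here. Members, lists and rules were chosen with earlier results of these data known. The replicate sets without fulvestrant replicate 4 and the test of drug by replicate set were added after seeing the data. The fit was checked on simulated counts. No pair of libraries within the fulvestrant or tamoxifen groups was a duplicate (chi-square per degree of freedom 1.75 to 3.81).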

Additional observations from a re-analysis of the deposited data

Results flagged for a closer look

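The difference between fulvestrant and tamoxifen itself differed between replicates 1 and 2 and replicates 3 and 4 at 6 peaks (interaction of drug and replicate set, adjusted p under 0.05 in edgeR), all more positive in replicates 3 and 4. They lay near LOC100996701, B3GAT1, ALKAL1 and LOC100507221 and in ZNF16 and ALDH16A1, and without fulvestrant replicate 4 none was called. The ZNF16 peak had 2.29, 0.863, 10.3 and 31.4 CPM with fulvestrant, against 2.62, 2.36, 3.41 and 0.745 CPM with tamoxifen. The peaks higher within replicates 3 and 4 averaged 1.49 CPM in tamoxifen replicate 4, below the 2.26 to 2.4 CPM of the other tamoxifen libraries. They were chosen as higher with fulvestrant in replicates 3 and 4, a choice that favours low tamoxifen values there.

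Single libraries stood far from the other 3 of their group in 11 of 140 tests (Dixon's test at the 95% level; chance flags about 1 in 20). In 8 of them fulvestrant replicate 4 was far below its group: at the strongest peaks near TP53INP1 (15.7 CPM), HDAC3 (31.4), SPDEF (51.8), HMGCS1 (50.3), AHRR (12.6), FOSL1 (15.7), PSMC4 (15.7) and PPIA (29.8). In tamoxifen libraries, the TFF1 peak was low in replicate 3 (4.64 CPM) and the PSMC4 peak high in replicate 2 (75.3 CPM).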

How the results depend on the processing

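The count of 0 called peaks held with RLE factors, total counts, a stricter (median abundance) or no filter, only the compared groups, the replicate block, the older edgeR fit, DESeq2 and without the vehicle libraries whose labels conflict. It did not hold with the replicate set as a term (0 higher, 3 lower, with or without fulvestrant replicate 4: the peaks near CYP2A7, in NYAP2 and near GUCY1A2), in replicates 1 and 2 only (0 higher, 2 lower, near CYP2A7 and ATP11B) or in replicates 3 and 4 only (268 higher, 13 lower; 100 and 6 without fulvestrant replicate 4). Leaving out 1 library gave 0 higher and 0 to 1 lower, which was a peak near AOC1 without fulvestrant replicate 2. The cause was not tested.

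Peaks at an unadjusted p under 0.05 numbered 2062 higher and 2119 lower with the filter at the median abundance, which tests fewer peaks. In replicates 3 and 4 they were 9685 and 7645, and 9167 and 7546 without fulvestrant replicate 4. Lower ones numbered 2511 with only the compared groups and 2769 with DESeq2, and total counts gave 5027 higher and 3043 lower. Leaving out each library gave 3396 to 5372 higher and 3306 to 4820 lower. The replicate block gave 4180 higher and 3892 lower with 0 called. Deviations from the group means correlated at 0.0436, 0.0530, 0.0556 and -0.0335 between same-numbered libraries. Counting noise at weak peaks lowers such correlations, so they cannot tell whether the numbers pair the libraries.

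The estradiol-raised median was -0.37 in replicates 3 and 4, -0.31 there without fulvestrant replicate 4, and -0.17 to -0.01 on leaving out each library. The per-library difference was -0.18 to -0.06 on leaving out each library and stayed below 0 in every alternative run. Among the named peaks, 109 of 1581 alternative values changed sign, none of them called in the fit with all libraries. Scaling moved the median of all peaks by under 0.1. Depth limits weak peaks and every value of fulvestrant replicate 4.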

Other observations

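Of the peaks with the smallest p within replicates 3 and 4, a pair was chosen after their values were seen. The peak 354 kb from WSB1 (chr17:26939882-26940089) had 2.29, 0.863, 11.5 and 20.4 CPM with fulvestrant, against 1.31, 1.89, 1.36 and 1.70 CPM with tamoxifen. The peak 109 kb from LOC102723475 (chr21:7938266-7938498) had 2.01, 1.11, 13 and 44.0 CPM with fulvestrant, against 2.22, 2.68, 3.55 and 1.38 CPM with tamoxifen. Among the raloxifene and vehicle libraries the WSB1 peak reached 4.16 CPM and the LOC102723475 peak 10.0 CPM, each in vehicle replicate 2. Both groups overlapped when all replicates were taken. The 268 higher calls fell on 20 chromosomes, with the most on chromosome 3 (25 peaks) and next chromosome 16 (22 peaks). In the fit with all libraries, chromosome 3 held 11825 of the 156745 tested peaks and chromosome 16 held 5312.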
